A study of Saccharomyces cerevisiae with 8 samples.

Results

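The ACA sites of 10 genes through which budding yeast senses nutrients were followed. They are GCN1 (YGL195W), GCN2 (YDR283C), GCN20 (YFR009W) and GCN4 (YEL009C) of general amino acid control, IRA1 (YBR140C) and IRA2 (YOL081W) of the Ras branch, and TOR1 (YJR066W), GTR1 (YML121W), GTR2 (YGR163W) and MAF1 (YDR005C) of the TOR branch. Members were all rows of the deposited table whose identifier carries the systematic name of 1 of these 10 genes. They came to 253 sites, of 76330 distinct sites in 6104 gene models. The genes were chosen by their roles and with values of these data in view, namely WT and KO efficiencies after pulldown, where GCN2 stood out. For that reason the comparison of genotypes after pulldown is given here as a description, without p-values, and tests are given for the RNA taken before pulldown. Genotype differences before and after pulldown are related across sites, so those tests are not wholly free of that choice.

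When amino acids run short, uncharged tRNA activates the kinase Gcn2 with the help of Gcn1 and Gcn20. Gcn2 then phosphorylates the initiation factor eIF2, which lowers general translation and raises translation of the transcription factor Gcn4. Ira1 and Ira2 are GTPase-activating proteins that switch Ras off and so lower protein kinase A activity. Gtr1 and Gtr2, the yeast Rag GTPases, signal amino acid supply to TOR complex 1, which contains Tor1, and Maf1 represses RNA polymerase III when these growth pathways are down. Diploid yeast enters meiosis on starvation, when protein kinase A and TOR complex 1 signalling are low. N6-methyladenosine (m6A) is laid on mRNA during that programme by a complex that contains Ime4.

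The assay digests polyadenylated RNA with MazF, a bacterial endoribonuclease that cuts at ACA and spares the site when its first A is m6A. The deposited value is a normalized cleavage efficiency per site, a fraction from near 0 to 1, and a higher value was taken to mean more cutting, a reading that no source used here states. All cells were SK1 diploids (MAT a/alpha) homozygous for lys2, ho::LYS2 and ndt80::LEU2, grown in YPD and then induced for meiosis for a time that the labels do not give. NDT80, whose product drives the exit from pachytene, was thus disrupted in every group, the controls included, and the part removed is not given in the labels. WT cells carried IME4, and KO cells were in addition homozygous for ime4::HIS3. Each genotype gave 2 input libraries, made before pulldown, and 2 IP libraries, made from RNA that an anti-m6A antibody had pulled down, so that there were 8 libraries in 4 groups of 2. The series' design text calls the replicates biological, and no label says how the cultures were kept apart.

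Genotype labels were checked at IME4: of its 27 listed sites, the WT input libraries measured 21 and 23 and the WT IP libraries 16 and 24, against 2 and 0 in KO input and none in KO IP. No read counts accompany the values, which leaves the depth of every site unknown. Each library has a highest value shared by 3.23% to 9.80% of its sites (0.992 and 0.994 in WT input, 0.997 and 1.000 in WT IP, 1.000 in each KO library), and a site at that ceiling shows no spread. Between replicates, values over the 17376 sites measured in all 8 libraries correlated at 0.929 in WT input, 0.984 in KO input, 0.944 in WT IP and 0.955 in KO IP, across sites, which are not independent replicates. Positions are those of the deposited table, whose genome build was not given. Offsets such as +141 count nt from the start of the gene model, and coding sequence, intron and UTR were not annotated.

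How much of each transcript was seen differed widely between the 10 genes. GCN4 was the most completely covered, with 10 or 11 of its 11 listed sites measured in every library. GTR1 had 8 of 9 sites in each input library and MAF1 14 to 16 of 16. TOR1 had the sparsest coverage, with 4 and 5 of 20 sites in WT input, 9 and 12 in KO input, 4 and 7 in WT IP and 3 and 6 in KO IP. Sites listed for the long genes lay well inside their models: the first listed site was at +4652 of GCN1, +3531 of IRA1, +3177 of TOR1 and +1151 of IRA2, while GCN4 and GTR1 began at +141 and +140. A value is listed only where some library measured the site, since none of the 76330 sites was without a value in all 8. IP measured fewer sites than input in both genotypes, 86 and 127 of the 253 in WT IP and 50 and 98 in KO IP, against 139 and 188 in WT input and 192 and 196 in KO input. Both WT IP libraries and neither KO IP library measured 28 of the 253 sites, and the opposite held for 3, next to 7577 and 3205 of all 76330 sites. Whether a site lacks a value because its transcript was scarce or because few reads fell on it cannot be told apart.

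**Figure D1:**
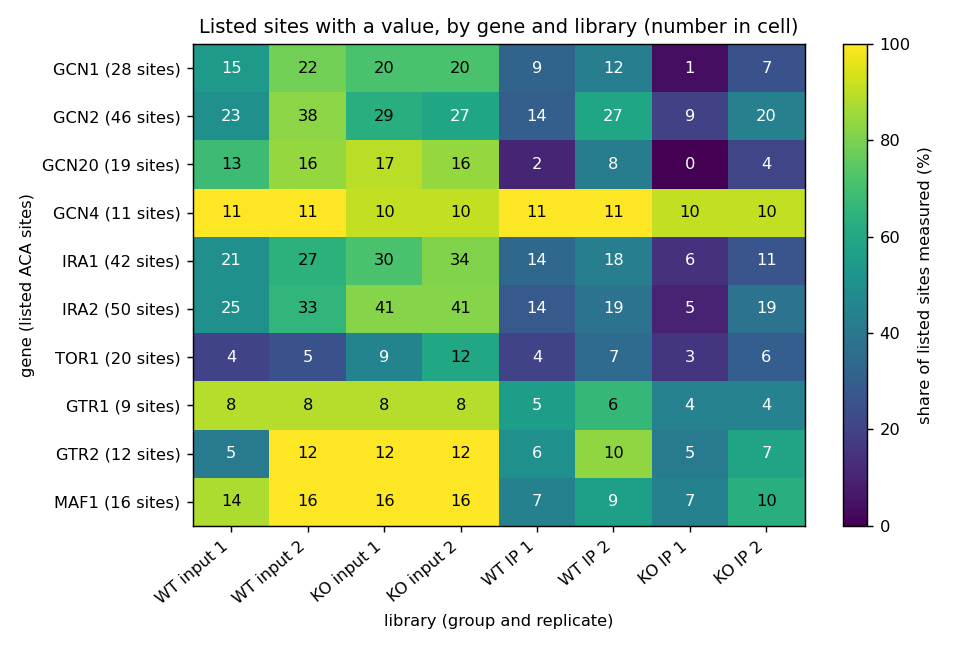
Rows are the 10 genes with their number of listed ACA sites, columns are the 8 libraries, colour is the share of listed sites with a value (%) and the number in each cell is the count. GCN4 is nearly complete in every library, while GCN20 has 0 sites in KO IP replicate 1 and GCN1 has 1.

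Sites measured in all 8 libraries came to 32 in 8 genes, and none were in GCN1 or GCN20. These 32 were fitted together with all 17376 such sites by limma, with Benjamini-Hochberg adjustment over all of them and a threshold of 0.05. In input, 6 member sites were lower in WT, 5 were higher and 21 did not pass. That is 34.4% of 32, beside 32.2% of all tested sites (15.6% lower and 16.6% higher), so the share that differed was near the background. The median WT minus KO difference was 0.016 over the 32 sites and 0.000114 over all sites. WT and KO input libraries did not overlap at 28 of the 32 sites, where 75.5% of all sites did not. A second fit used the 4 input libraries alone and took every site measured in those 4, which brought in 130 member sites in all 10 genes. In it 16 were lower in WT, 19 were higher and 95 did not pass, 26.9% past the threshold beside 25.0% of all 42028 sites. WT and KO did not overlap at 86 of these 130 sites, beside 70.6% of all sites. No call of that second fit remained without either KO input library: without replicate 1 or 2, limma called 0 member sites (39 and 37 had an unadjusted p below 0.05) and 0 of all sites. All of its 35 calls are named below, a choice made after their values were seen.

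**Figure D2:**
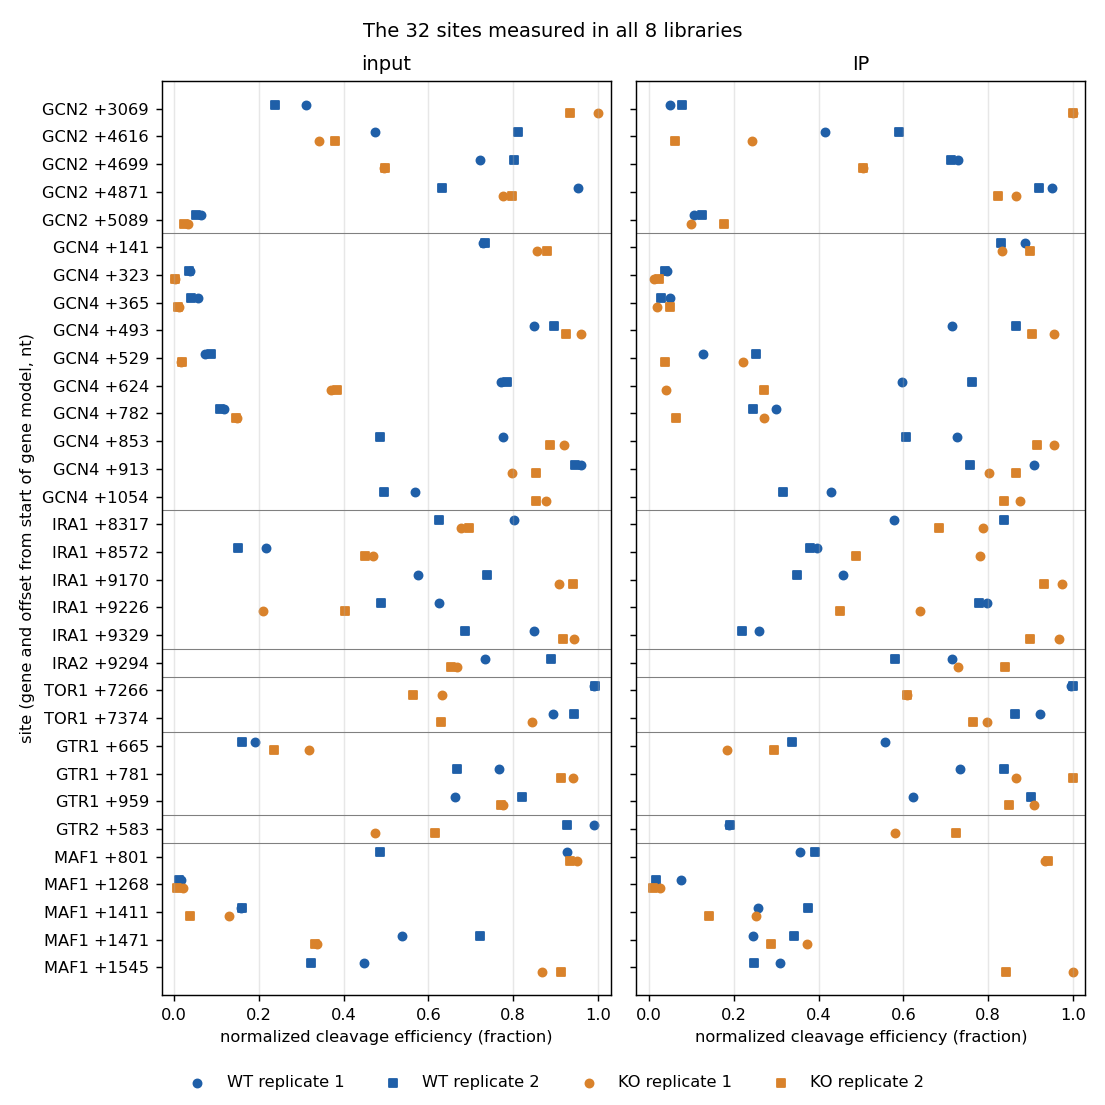
Each row is 1 of the 32 sites measured in all 8 libraries, named by gene and offset from the start of the gene model (nt), and each point is the normalized cleavage efficiency (fraction) of 1 library, with input on the left and IP on the right. WT points (blue) lie far to the left of KO points (orange) at GCN2 +3069 in both panels, and at GTR2 +583 they change sides between the panels.

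GCN2, the kinase gene, carried the deepest difference of the set. Its site at +3069 (chromosome 4, position 1025681, minus strand) lies 58.1% of the way from the model start to the last listed site. Efficiency there was 0.311 and 0.238 in WT input and 1.00 and 0.934 in KO input. It was 0.0502 and 0.0782 in WT IP and 1.00 and 1.00 in KO IP. WT was far below KO in both fractions, and the KO values lay at or near the ceiling. In input WT fell by 0.693 (SE 0.0366, limma adjusted p = 0.000322, n = 2 libraries a group). In IP the difference was -0.936, the 4th lowest of 17376 tested sites, and it is the value that drew attention to this gene. Over all sites 54.8% of IP calls also passed in input, where 32.2% of all tested sites passed. The fit of all 8 libraries also takes its spread partly from the IP libraries. The input p-value at this site is thus not independent of how the gene was chosen. From input to IP the WT mean went down while KO stayed at the top of its range, and every KO library measured at least 0.934.

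Elsewhere along GCN2 the genotypes differed in both directions. At +4699 the values were 0.723 and 0.803 in WT input and 0.495 and 0.498 in KO input, a rise of 0.266 in WT (SE 0.0318, limma adjusted p = 0.00256). The same order held after pulldown, with 0.730 and 0.713 in WT IP and 0.505 and 0.505 in KO IP. The 2 sites, 1 lower and 1 higher in WT, lie 1630 nt apart. Of 19 GCN2 sites in the fit of the input libraries alone, 6 passed, 31.6% beside 25.0% of all sites. The fit of the input libraries alone added 4 sites, of which +5183 was the largest, with 0.524 and 0.551 in WT input and 0.927 and 0.970 in KO input. WT fell by 0.411 there (SE 0.0280, limma adjusted p = 0.0111). At +4215 GCN2 fell by 0.180 (limma adjusted p = 0.0319). It rose by 0.334 at +4296 (adjusted p = 0.0483) and by 0.325 at +4405 (adjusted p = 0.0215), where WT input replicate 2 was at its ceiling. The direction in input thus turned between +4215 and +4296, which lie 81 nt apart. In IP +4296 had 0.654 in WT replicate 2 and 0.502 and 0.260 in KO. The rise at +4405 was not seen in IP, with 0.757 and 0.733 in WT and 0.795 in KO replicate 2. The other 3 GCN2 sites measured in all 8 libraries, +4616, +4871 and +5089, did not pass in input, with WT minus KO differences of 0.282, 0.00603 and 0.0296. The site +1982 was measured by both WT IP libraries at 0.0987 and 0.113 and by both KO inputs at 0.899 and 0.915, while WT input replicate 2 had 0.872. KO IP did not measure it, so the genotypes could not be set against each other in IP. Its last listed site, +5282, had a value only in WT IP replicate 2 (0.0240).

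GCN1 encodes the ribosome-bound activator of Gcn2, and GCN20 its ABC-family partner. GCN1 had 13 sites in the fit of the input libraries, with 1 lower and 3 higher in WT. That is 30.8% past the threshold, beside 25.0% of all sites in that fit. At +7397 (chromosome 7, position 144212, plus strand) efficiency was 0.882 and 0.936 in WT input and 0.302 and 0.416 in KO input, a rise of 0.550 (SE 0.0528, limma adjusted p = 0.0144). At +7313, which lies 84 nt upstream, it was 0.900 and 0.938 in WT input and 0.445 and 0.309 in KO input, a rise of 0.542 (adjusted p = 0.0167). WT lay far above KO at both of these close sites. GCN1 rose by 0.334 at +8105 (limma adjusted p = 0.0429) and fell by 0.352 at +6183 (adjusted p = 0.0301), where WT input had 0.487 and 0.428 and KO input 0.866 and 0.752. In IP the genotypes were not apart at +8105, with 0.509 and 0.296 in WT and 0.315 in KO replicate 2. KO IP replicate 2 had 0.339 at +7397, near KO input, and WT IP had no value there. The only GCN1 site that all 4 IP libraries measured was +7670, with 0.596 and 0.521 in WT IP and 0.814 and 0.877 in KO IP. The 3′-most listed site, +8257, was nearly uncut, with 0.0119 and 0.00463 in WT input and 0.0720 and 0.0216 in KO input, and did not pass.

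In GCN20, 1 of 12 sites (8.33%) passed in input, beside 25.0% of all sites, and 11 did not. That site was +2085 (chromosome 6, position 166142, plus strand), with 0.815 and 0.775 in WT input and 0.573 and 0.550 in KO input, a rise of 0.233 (SE 0.0269, limma adjusted p = 0.0185). At 7 of its 19 sites, +126, +1626, +1686, +1691, +1781, +1867 and +1956, a second listed gene model (tG(GCC)F1 at +126, YFR009W-A at the others) holds the same position and values, so they cannot be assigned to GCN20 alone. The site +2085 is not among them. KO IP replicate 1 measured no GCN20 site, and the genotypes were not compared in IP. The last listed site, +2363, had a value only in WT replicate 2, 0.323 in input and 0.272 in IP.

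GCN4, the transcription factor gene at the end of this branch, gave the fullest picture. In input 2 of its 10 tested sites were lower in WT, 1 was higher and 7 did not pass. That is 30.0% past the threshold, beside 32.2% of all tested sites, so the share was near the background. At +1054 (chromosome 5, position 143527, minus strand) the values were 0.569 and 0.496 in WT input and 0.876 and 0.853 in KO input, so that WT fell by 0.333 (SE 0.0468, limma adjusted p = 0.00433). After pulldown they were 0.429 and 0.316 in WT IP and 0.877 and 0.838 in KO IP, so WT lay below KO in both fractions without overlap. At +624, WT was the higher genotype, with 0.772 and 0.785 in WT input and 0.370 and 0.384 in KO input, a rise of 0.402 (SE 0.0871, limma adjusted p = 0.0187). In IP this site had 0.597 and 0.762 in WT IP and 0.0394 and 0.272 in KO IP, again without overlap. The first listed site, +141, fell by 0.136 in input (limma adjusted p = 0.0292), from 0.857 and 0.879 in KO to 0.730 and 0.735 in WT, but its IP libraries overlapped. The calls at +141 and +624 ended without any 1 of the 4 input libraries, with adjusted p from 0.0848 to 0.145 at +141 and from 0.0591 to 0.0938 at +624, whereas that at +1054 held.

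The GCN4 sites +323, +365, +529 and +782 stayed at the low end of the scale in both genotypes. At +323 the highest value of any library was 0.0420 (WT IP replicate 1), and at +365 it was 0.0556 (WT input replicate 1). The site +529 ranged from 0.0166 to 0.252 and +782 from 0.0636 to 0.299. All 4 sites had values below 0.3 in WT without passing the threshold against KO. The fit used the fraction itself, so differences as small as those at +323 (0.0336) and +365 (0.0373) had little room to pass. Not passing therefore does not show equal cutting at these sites. WT and KO input libraries did not overlap at any of the 4 sites, as at 75.5% of all tested sites. WT input lay above KO input at +323 (0.0362 and 0.0356 against 0.00208 and 0.00258) and +365 (0.0556 and 0.0393 against 0.0114 and 0.00892). It also lay above at +529 (0.0737 and 0.0878 against 0.0166 and 0.0192) and below at +782 (0.118 and 0.109 against 0.147 and 0.145). Its last listed site, +1174, was measured only in WT, with 0.0303 and 0.00281 in input and 0.0502 and 0.00808 in IP, all close to 0. Its KO value was not measured in any library.

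IRA1, a Ras inhibitor gene, leaned to lower values in WT input. In the fit of the input libraries 6 of its 21 sites were lower, 1 was higher and 14 did not pass, beside 11.0% lower and 14.0% higher over all sites. The largest drop was at +8493 (chromosome 2, position 505540, minus strand), with 0.237 and 0.231 in WT input and 0.748 and 0.736 in KO input, so that WT fell by 0.508 (SE 0.0205, limma adjusted p = 0.0111). At +8145 efficiency was 0.391 and 0.384 in WT input and 0.805 and 0.805 in KO input, so that WT fell by 0.418 (adjusted p = 0.0111 by limma). Replicates agreed closely at both sites and the genotypes stood well apart. Further IRA1 drops were called at +8943, where WT minus KO was -0.350, at +8674 (-0.340), at +8572 (-0.276) and at +7802 (-0.245), and the 1 rise was at +7566 (0.225, limma's adjusted p from 0.0133 to 0.0485 over these 5). No drop was seen in IP at +8674, where WT IP replicate 2 was at its ceiling (1.000) and KO IP had 0.882 and 1.00. The input order held in IP at +8943 (0.173 and 0.241 in WT, 0.493 in KO replicate 2). It also held at +8572 (0.397 and 0.381 in WT, 0.782 and 0.489 in KO). The 7 calls span 1377 nt in the last 20% of the model, and +8572, the only 1 of them measured in all 8 libraries, did not pass in the fit of all libraries (adjusted p = 0.0692).

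Still nearer the 3′ end, IRA1 sites +9170, +9226 and +9329 alternated in sign over 159 nt. At +9170 values were 0.576 and 0.738 in WT input and 0.908 and 0.940 in KO input, so that WT fell by 0.267 (SE 0.0632, limma adjusted p = 0.0246). In IP they were 0.457 and 0.349 in WT IP and 0.974 and 0.932 in KO IP. At +9329 IP values were 0.260 and 0.219 in WT IP and 0.966 and 0.899 in KO IP, while in input WT had 0.850 and 0.687 and KO 0.944 and 0.917, a difference of -0.162 that did not pass. WT lay below KO at both sites in both fractions. Between them, +9226 had the opposite order in input, 0.625 and 0.488 in WT input and 0.211 and 0.403 in KO input, and did not pass (adjusted p = 0.0915 by limma). In IP +9226 had 0.798 and 0.779 in WT IP and 0.639 and 0.450 in KO IP. The input call at +9170 ended with only the 4 input libraries (adjusted p = 0.0653), without WT input replicate 1 (0.0636), and without KO input replicate 1 (0.0943) or 2 (0.123). The 3′-most listed site, +9396, was highly cut throughout, with 0.919 and 0.958 in WT input and 0.935 and 0.994 in KO input, and 0.860 and 0.979 in WT IP.

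IRA2, the paralog of IRA1, had 2 of 24 sites lower and 4 higher in WT input and 18 that did not pass. That is 25.0% past the threshold, beside 25.0% of all sites (11.0% lower and 14.0% higher), so the share was at the background. Whether IRA1 and IRA2 differ in their balance of lower and higher sites was not tested. The last listed site, +9511 (chromosome 15, position 179671, plus strand), gave the largest rise, from 0.359 and 0.363 in KO input to 0.827 and 0.836 in WT input (0.471, SE 0.0203, limma adjusted p = 0.0111). KO IP replicate 2 had 0.685 there, between the KO and WT input values, and WT IP did not measure the site. Close by, +9445 rose by 0.314 and +8961 by 0.296 (limma's adjusted p 0.0237 and 0.0233). A pair of sites 4 nt apart moved in opposite directions. At +8666 efficiency was 0.142 and 0.125 in WT input and 0.517 and 0.536 in KO input, so that WT fell by 0.393 (SE 0.0224, limma adjusted p = 0.0111), whereas +8670 had 0.955 and 0.955 in WT input and 0.724 and 0.766 in KO input, a rise of 0.210 (adjusted p = 0.0204). WT IP replicate 2 had 0.191 at +8666 and KO IP 0.671 and 0.706. The other lower call was +7784 (-0.186, limma adjusted p = 0.0372). In all 8 libraries IRA2 had 1 measured site, +9294, where WT minus KO was 0.152 in input and -0.137 in IP, and the input difference did not pass. Low WT IP values beside high KO input values were also found at IRA2 +6539 (0.187 and 0.216 against 0.851 and 0.984) and at +9056 (0.428 and 0.314 against 0.894 and 0.906), but these set IP against input and were not tested. At +9056 KO IP replicate 2 had 0.961. The WT minus KO difference in input at +9056, -0.211, was tested and did not pass.

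**Figure D3:**
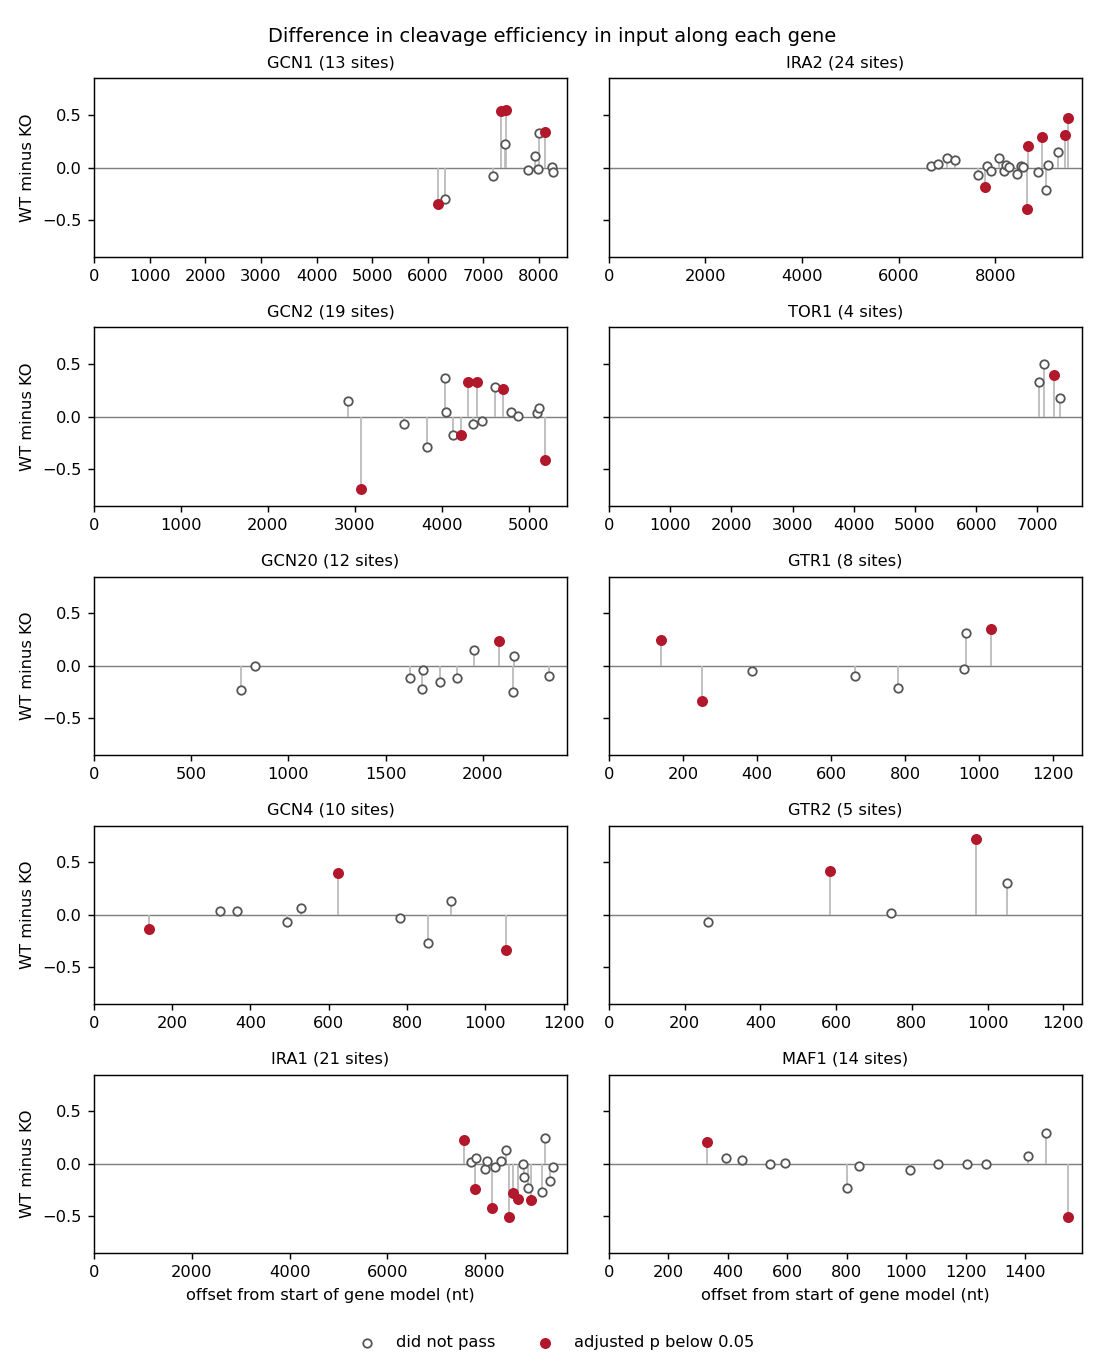
Each panel is 1 gene, the horizontal axis is the offset from the start of its gene model (nt) and the vertical axis is WT minus KO cleavage efficiency in input, for the 130 sites measured in all 4 input libraries. Filled points passed an adjusted p of 0.05 in the fit of those libraries (16 below and 19 above 0), and in IRA1 the filled points lie mostly below 0.

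TOR1, a kinase of TOR complex 1, had 2 sites measured in all libraries, both near the 3′ end and both higher in WT. At +7266 (chromosome 10, position 581188, plus strand) values were 0.992 and 0.994 in WT input and 0.631 and 0.564 in KO input, a rise of 0.396 (SE 0.0287, limma adjusted p = 0.000577). In IP they were 0.997 and 1.000 in WT IP and 0.610 and 0.608 in KO IP. All 4 WT libraries stood at their ceiling, so the WT spread is not known there. The other site, +7374, had 0.894 and 0.943 in WT input and 0.845 and 0.629 in KO input and did not pass (adjusted p = 0.108 by limma). The other TOR1 sites measured in the 4 input libraries, +7025 and +7111, had higher WT values as well, 0.992 and 0.803 in WT input and 0.617 and 0.518 in KO input at the first and 0.992 and 0.657 in WT input and 0.388 and 0.260 in KO input at the second, and neither passed. Its last listed site, +7503, was measured only in KO, at 0.988 and 0.865 in input and 0.894 in IP replicate 2.

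GTR1 and GTR2 encode the 2 GTPases of the Rag heterodimer. GTR1 had 0.767 and 0.668 in WT input and 0.941 and 0.914 in KO input at +781, so that WT fell by 0.210 in the fit of all libraries (SE 0.0616, limma adjusted p = 0.0488). The call at +781 lay just inside the threshold and ended without any 1 of the 4 input libraries (adjusted p 0.0563 to 0.190) or either WT IP library (0.0559 each), and in the fit of the input libraries alone (0.0541). That second fit called 3 other GTR1 sites of 8 tested, 37.5% beside 25.0% of all sites. The site +251 had 0.597 and 0.544 in WT input and 0.905 and 0.904 in KO input, so that WT fell by 0.334 (SE 0.0287, limma adjusted p = 0.0128), and +1032 had 0.932 and 0.956 in WT input and 0.618 and 0.566 in KO input, a rise of 0.352 (adjusted p = 0.0126). At +140, the first listed site, GTR1 rose by 0.240 (limma adjusted p = 0.0265). In IP the WT minus KO differences of its 3 sites measured in all libraries were 0.207 at +665, -0.148 at +781 and -0.117 at +959. The 3′-most listed site, +1240, was measured only in WT IP, at 0.145 and 0.126.

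GTR2 held the widest rise of the set and its clearest change of order between input and IP. At +969 (chromosome 7, position 841725, plus strand) WT input had 0.992 and 0.958 and KO input 0.268 and 0.233, a rise of 0.724 (SE 0.0276, limma adjusted p = 0.0111), and WT input replicate 1 was at its ceiling. KO IP replicate 1 had 0.258 there. At +583 (chromosome 7, position 841339, plus strand) efficiency was 0.992 and 0.926 in WT input and 0.473 and 0.615 in KO input, a rise of 0.415 in WT (SE 0.0660, limma adjusted p = 0.00658). After pulldown it was 0.189 and 0.192 in WT IP and 0.581 and 0.724 in KO IP, a difference of -0.462. WT libraries therefore lay above KO in input and below KO in IP, and neither pair overlapped. KO libraries lay between 0.473 and 0.724 over both fractions, whereas WT went from near its ceiling in input to 0.189 and 0.192 in IP. The site +1094, measured in all 4 IP libraries, had 0.191 and 0.178 in WT IP and 0.818 and 0.842 in KO IP. There WT input replicate 2 had 0.279 and KO input 0.732 and 0.925. GTR2 +1094 and +1213 share their positions and values with the overlapping gene model YGR164W, so they cannot be assigned to GTR2 alone. The last listed site, +1213, had 0.730 in WT input replicate 2, 0.965 and 0.987 in KO input, 0.898 and 0.892 in WT IP and 0.928 and 0.966 in KO IP.

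MAF1, the repressor of RNA polymerase III, was lower in WT at its last listed site in both fractions. That site, +1545 (chromosome 4, position 468944, minus strand), had 0.448 and 0.323 in WT input and 0.867 and 0.913 in KO input, so that WT fell by 0.505 (SE 0.0671, limma adjusted p = 0.00358). In IP it had 0.309 and 0.247 in WT IP and 1.00 and 0.842 in KO IP. No WT library exceeded 0.448 and no KO library lay below 0.842. The call ended on a logit scale (adjusted p = 0.0658) and held without any single library. At +1471, which lies 74 nt upstream, WT was higher in input, with 0.539 and 0.722 in WT input and 0.336 and 0.332 in KO input, a rise of 0.296 (SE 0.0695, limma adjusted p = 0.0241), while the IP libraries overlapped, with 0.245 and 0.342 in WT IP and 0.374 and 0.288 in KO IP. That rise ended without WT input replicate 2 (adjusted p = 0.0603), KO input replicate 1 (0.105) or 2 (0.110), and with only the input libraries (0.0653). At +801, efficiency was 0.927 and 0.485 in WT input and 0.950 and 0.934 in KO input, a difference of -0.236 that did not pass. In IP it was 0.356 and 0.391 in WT IP and 0.935 and 0.943 in KO IP. The difference in IP was -0.565. In the fit of the input libraries MAF1 also rose by 0.203 at +329 (limma adjusted p = 0.0321), and 12 of its 14 sites did not pass. The share that passed was 14.3%, beside 25.0% of all sites in that fit. MAF1 +1268 was nearly uncut in every library, at most 0.0753, and +591 was nearly fully cut in all but WT IP replicate 2 (0.857) among the 7 libraries that measured it.

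In IP, as a description, 7 of the 32 sites were lower in WT, 3 were higher and 22 did not pass, 31.25% beside 41.3% of all tested sites (17.0% lower and 24.3% higher). WT and KO IP libraries did not overlap at 22 of the 32, beside 72.5% of all sites. With the 4 IP libraries fitted alone, 14 of 36 sites passed (11 lower, 3 higher), beside 32.7% of 19517 sites (14.1% lower and 18.6% higher), and 26 did not overlap, beside 72.3%. That fit added GCN1 +7670, GCN2 +1105, GCN4 +853 and GTR2 +1094, all lower in WT. The members were chosen with this contrast in view, so nothing is read from that share. The lower sites were GCN2 +3069, GCN4 +1054, IRA1 +9170 and +9329, GTR2 +583, and MAF1 +801 and +1545, and the higher ones GCN2 +4699, GCN4 +624 and TOR1 +7266. Of the 11 sites past the threshold in input and the 10 in IP, 8 were shared, 72.7% of the first list and 80.0% of the second. Over all sites the shared calls made up 70.4% of the input list and 54.8% of the IP list. The IP list comes from the contrast in view when the genes were chosen, so nothing is read from this overlap either. Of the 8 shared sites 4 were lower in both, 3 were higher in both and GTR2 +583 was opposite. Differences in IP went further below 0 than those in input at IRA1 +9329 (-0.693 against -0.162), IRA1 +9170 (-0.550 against -0.267), MAF1 +801 (-0.565 against -0.236) and GCN2 +3069 (-0.936 against -0.693). The same held at GCN4 +1054 (-0.485 against -0.333) and MAF1 +1545 (-0.643 against -0.505). These sites were listed for their lower WT values in IP, so nothing is read from that order. Among the 3 higher sites, GCN4 +624 had 0.524 in IP and 0.402 in input, TOR1 +7266 had 0.389 in IP and 0.396 in input, and GCN2 +4699 had 0.217 and 0.266.

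**Figure D4:**
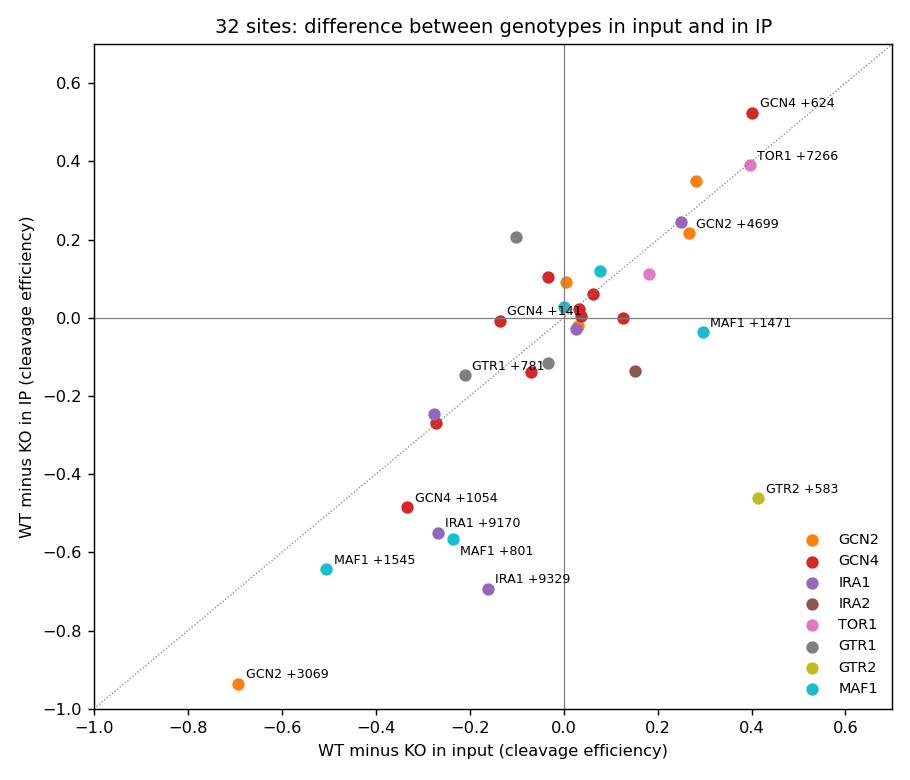
Each point is 1 of the 32 sites, coloured by gene, with WT minus KO cleavage efficiency in input on the horizontal axis and in IP on the vertical axis; the dotted line marks equal differences, and sites past the threshold in either fraction are named. GCN2 +3069 lies at the lower left (-0.693 and -0.936), and GTR2 +583 lies at the lower right (0.415 and -0.462). Other sites, among them IRA2 +9294, MAF1 +1471 and GCN4 +913, also have a positive input and a negative IP difference, nearer to 0 in IP.

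Where along a transcript the differing sites lay was described with the 130 sites of the input libraries. The last 20% of a model, measured up to its last listed site, held 79 of the 130, with 11 lower in WT and 14 higher. The first 80% held 51, with 5 lower and 5 higher. Over all sites 13.5% were lower and 13.1% higher in the last 20%, and 9.76% and 14.5% in the rest. Only MAF1 (lower) and IRA2 (higher) differed at the last listed site itself in the input fits; GCN1 +8257 and IRA1 +9396 were measured in the 4 input libraries without passing, and the last sites of the other 6 genes lacked a value in some input library.

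Other genes of the same pathways were counted the same way. Of 97 listed genes (26 of general amino acid control, 24 of Ras and protein kinase A, 47 of the TOR complexes with their regulators), 73 had sites measured in all 8 libraries. Of their 323 tested sites, 57 were lower in WT input, 44 were higher and 222 did not pass, 31.3% beside 32.2% of all sites. In IP 48 were lower, 82 were higher and 193 did not pass, 40.2% beside 41.3%. HIS3, also the marker that replaced IME4 in KO cells, is 1 of the 97. By list, in input, amino acid control had 23 lower and 16 higher of 110, Ras and protein kinase A 15 and 11 of 89, and the TOR list 19 and 17 of 124. The median differences of the 3 lists were 0.00224, 0.0176 and -0.00225.

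CDC25, the exchange factor that switches Ras on and so opposes Ira1 and Ira2, showed the largest drop of the listed genes, with 0.193 and 0.190 in WT input and 0.955 and 0.851 in KO input at +4186, so that WT fell by 0.711 (limma adjusted p = 0.00183). RAS2, the GTPase that they inactivate, had 0.286 and 0.325 in WT input and 0.932 and 0.992 in KO input at +928, so that WT fell by 0.656 (limma adjusted p = 0.000241). WT stood far below KO at both. RAS2 also rose by 0.526 at +1031, 103 nt downstream. LEU3, a regulator of leucine synthesis genes, fell by 0.695 at +2290. GPB2, a kelch-repeat protein that restrains protein kinase A, fell by 0.571 at +2314. SCH9, a kinase downstream of TOR complex 1, fell by 0.570 at +2767, and YPK1, a kinase downstream of TOR complex 2, fell by 0.539 at +1717. Besides RAS2 +1031, the named rises were in MBF1, the coactivator of Gcn4, by 0.638 at +568, in GCD6, an eIF2B subunit gene, by 0.626 at +1313, and in SUI3, the eIF2β gene, by 0.525 at +419. In IP, SUI3 +419 had the opposite order, with 0.0944 and 0.0983 in WT and 0.174 and 0.207 in KO, a WT minus KO difference of -0.0945 that was not tested against that in input. Limma's adjusted p for the input differences of these genes ran from 0.000155 to 0.0181.

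Over the 8 libraries, the sites most like GCN2 +3069 were found by the mean absolute difference in efficiency among the other 17344 tested sites outside the 10 genes. They were AHP1 +696 (0.0250), HEM13 +1177 (0.0322), MRP51 +1206 (0.0333), NGR1 +2344 (0.0383) and NUP84 +1985 (0.0409). HEM13, which encodes an enzyme of heme synthesis, had 0.280 and 0.237 in WT input, 0.973 and 0.953 in KO input, 0.0586 and 0.0258 in WT IP, and 0.931 and 0.951 in KO IP. Like GCN2 +3069, it was cut least in WT IP, at an intermediate level in WT input and nearly fully in KO. The site was picked for this likeness, so nothing is read from it.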

How the data were processed

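As deposited, the table holds a fraction for each ACA site and library, a cleavage efficiency that the authors normalized, per the table's name. How they normalized it, from what formula and on which genome build, is not given in the sources used here. Per the submitters' processing notes, the tools included STAR 2.5.3a and bedtools 2.26.0, whose steps are not described. Of 77601 lines for 6104 gene models, 1 was kept per position and strand (the line with most values), which left 76330 sites. Gene names came from the R64 gene table by locus tag (5680 of 6104 models), which was used for nothing else.

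Sites measured in all 8 libraries (17376) entered a limma fit (3.58.1, R 4.3.3) on the fraction itself, with 1 mean per group and 4 residual degrees of freedom. Two-sided tests of WT against KO were adjusted by Benjamini and Hochberg over all sites. All adjusted p-values are limma's. The fit of the 4 input libraries alone, over 42028 sites, has 2 residual degrees of freedom. A single site cannot be tested exactly, since 2 against 2 libraries allow no two-sided p below 0.333. Alternatives were a logit scale (offset 0.01), at least 6 of 8 libraries, a mean of at least 0.1, no value at 0.99 or above, quantile normalization, a prior both robust and trended, the 4 libraries of 1 contrast, a replicate block (also nested in genotype), median centring and each library left out. Leaving out input libraries and ceiling values in the fit of 4 input libraries was added after the data were seen.

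In input, up to 3 lower and 2 higher sites per gene past the threshold without overlap were named, in IP up to 2 and 2. The last listed site of each gene, up to 6 lower and 4 higher sites of the pathway list and the 5 sites most like the deepest one were added. Members and lists were chosen with earlier results of these data known. Site sequences were not used here.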

Additional observations from a re-analysis of the deposited data

Results flagged for a closer look

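At 3 of the 32 sites measured in all 8 libraries, both WT libraries lay on one side of both KO libraries in input and on the other side in IP. The difference between the 2 fractions was not tested, because the genes were chosen with IP values in view. At GTR2 +583, WT minus KO in IP less that in input was -0.877. At IRA2 +9294 it was -0.289, and at GTR1 +665, where WT was below KO in input and above it in IP, it was 0.309. Neither IRA2 +9294 nor GTR1 +665 passed limma's threshold in input (adjusted p 0.167 and 0.387).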

How the results depend on the processing

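No named site changed direction under any alternative. Of 11 sites named in input, 5 kept their side of the threshold under every alternative that held them (GCN2 +3069 and +4699, GCN4 +1054, TOR1 +7266, GTR2 +583), and 6 lost it at least once, in 39 of 204 combinations of site and alternative. The alternative with no value at 0.99 or above did not hold GCN2 +3069, TOR1 +7266 or GTR2 +583. Each has a library at or above that value, so that alternative could not test them. Counts of member sites in input (6 lower, 5 higher, 11 in all, of 32) became 13, 8 and 21 of 71 with at least 6 of 8 libraries, 3, 3 and 6 of 27 with no value at 0.99 or above, 16, 19 and 35 of 130 in the fit of the input libraries, and 3, 3 and 6 with the replicate block nested in genotype; the sites tested differ in the first 3 of these. With 1 library left out they ran from 3 to 7 lower, 3 to 6 higher and 6 to 12 in all; without KO input replicate 1 they were 3 lower and 7 in all, and without KO input replicate 2 they were 3, 3 and 6. In the fit of the input libraries, leaving out 1 library gave 0 to 20 lower, 0 to 16 higher and 0 to 36 in all, with 0 without either KO input library. In IP, where the counts are a description (7 lower, 3 higher, 10 in all), they were 15, 5 and 20 with at least 6 of 8 libraries, 4 lower and 6 in all with no value at 0.99 or above, and 11 lower in the fit of the IP libraries; with 1 library left out they ran from 6 to 8 lower, 3 to 4 higher and 9 to 12 in all. Same-numbered libraries did not deviate together (correlations of deviations from -0.0164 to 0.0786), so the numbers were not taken as pairs; with the replicate block over all libraries 11 member sites passed in input and 11 in IP. Other causes of these shifts were not tested. The depth behind each fraction is unknown.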
